A study of Mus musculus with 7 samples.

Results

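The 34 genes described here mark vascular and lymphatic endothelium, the cell layer that lines blood and lymph vessels. They were taken by symbol from a deposited table of 50095 genes, in which each of the 34 was found once. The table covers 7 RNA-seq libraries of primary mouse granulosa cells, the somatic cells that surround the oocyte in the ovarian follicle. The KO group held 3 libraries labelled KO1 to KO3, with the genotype Ezh2flox/flox; Cyp19-Cre, and the WT group 4 libraries labelled WT1 to WT4, with the genotype Ezh2flox/+; Cyp19-Cre. Ezh2 is the enzyme of a Polycomb complex that methylates histone H3, and the Cyp19 promoter, that of aromatase, makes Cre act in granulosa cells. Both groups therefore carried Cre, and the WT group carried 1 floxed and 1 intact allele. All mice were 3 weeks old and were primed with pregnant mare serum gonadotropin (5 IU), followed after 48 h by human chorionic gonadotropin (5 IU). The labels do not give the interval to collection or say whether each library came from its own animal, so p-values reflect the spread among these 7 samples, which may be technical. WT4 was labelled WT by title and genotype but carried the KO treatment label, and it was kept in WT.

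Endothelial cells are held together by adhesion molecules such as VE-cadherin, and they sense growth factors of the VEGF and angiopoietin families through receptor tyrosine kinases. Transcription factors of the ETS and SoxF families set their identity in the mouse. In the ovary the granulosa layer of a growing follicle has no vessels of its own. The capillaries lie in the theca, outside the follicle's basal lamina, and grow inward after the ovulatory gonadotropin surge to supply the corpus luteum.

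The libraries were checked by the targeted gene and by granulosa markers. Ezh2 stood at 20, 17.8 and 26.1 FPKM (fragments scaled by transcript length and library size) in KO1, KO2 and KO3, and at 20.5, 23.4, 25.2 and 25.3 FPKM in WT1 to WT4. It did not set the groups apart (log2 difference -0.15, SE 0.14, limma adjusted p = 0.432), so libraries are called KO-labelled below. FPKM over a whole gene includes exons that a deletion would leave in place. All 12 granulosa markers were expressed, led by the inhibin subunit Inha at 2390 ± 315 FPKM in KO-labelled and 3220 ± 389 FPKM in WT libraries. Over the whole table, FPKM added up to 400522 to 450103 in KO-labelled and 372085 to 390185 in WT libraries. Levels below are mean ± SD in FPKM over n = 3 KO-labelled and n = 4 WT libraries.

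Most endothelial identity genes were higher in KO-labelled libraries. The KO-labelled mean exceeded the WT mean for all 34, by a ratio of means between 1.21 for Cd34 and 7.60 for Cldn5, with a median of 3.20. For 30 of the 34, every KO-labelled library lay above every WT library, against 7.81% of the 32922 genes above 0 in some library. That wider set includes genes at 0 in some libraries, whereas no member was at 0 in any library. The members were also chosen with earlier results of these data known. Cd34, Aplnr, Calcrl and Esm1 were the 4 whose groups overlapped. The 34 genes together summed to 156, 115 and 152 FPKM in KO1, KO2 and KO3, and 47.8, 69.1, 52.4 and 42.6 FPKM in WT1 to WT4. That was 0.0286% to 0.0366% of all FPKM in KO-labelled and 0.0112% to 0.0186% in WT libraries. In bulk RNA a larger number of endothelial cells, more RNA per endothelial cell and expression of these genes by other cells, granulosa cells among them, cannot be told apart.

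The test, limma on log2(FPKM + 1), took in the 13850 genes that averaged 1 FPKM or more across all libraries. A call required a Benjamini-Hochberg adjusted p below 0.05. Of the 34 genes, 24 passed this minimum and 10 did not. Among the 24, 19 rose and 0 fell, against 7.91% of all genes tested that were called higher and 16.7% called lower. The 34 members were chosen with earlier results of these data known, so this contrast is not an independent result. No member was lower at an unadjusted p under 0.05 either, and 22 were higher. On the log2(FPKM + 1) scale 14 rose at least 2-fold, against 2.74% of all genes tested. Called differences ran from 0.85 for S1pr1 to 1.93 for Eng and Emcn, and the median of the 24 was 1.08, beside -0.08 for all genes tested. Of the 24, 12 had a WT mean under 1 FPKM and so passed the minimum through their KO-labelled values. They were Cldn5, Icam2, Emcn, Tie1, Plvap, Ecscr and Lyve1, all among the 14, and Flt4, Aplnr, Apln, Calcrl and Erg. Of the other 12, 10 rose, against 6.64% of the 13472 genes tested with a WT mean of at least 1 FPKM. All 19 calls held in every alternative that changed 1 choice and tested the gene, but not when the minimum was dropped and a library left out together, as given below.

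**Figure D1:**
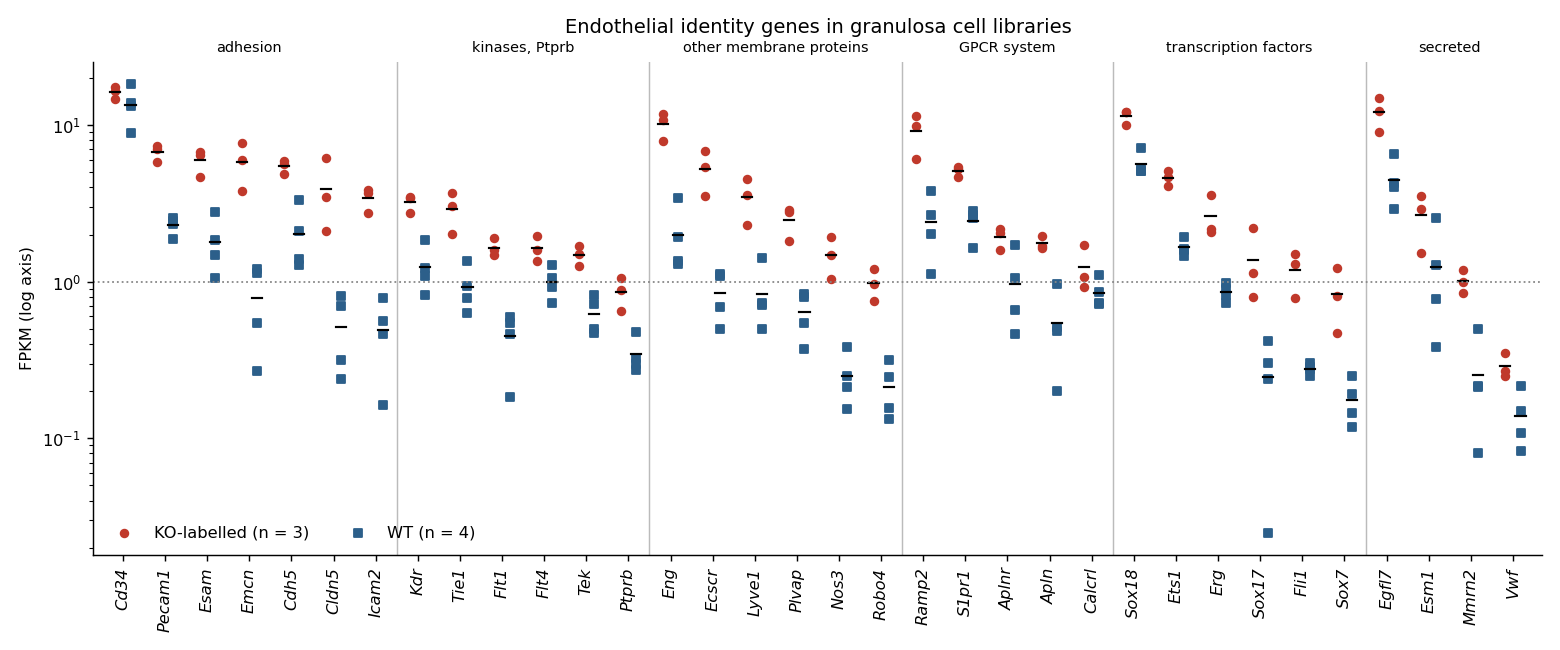
FPKM of the 34 endothelial identity genes on a log axis, grouped by role, with 1 point per library (circles, 3 KO-labelled; squares, 4 WT), bars at the group means and a dotted line at 1 FPKM. The KO-labelled points lie above the WT points for 30 genes, and the groups overlap for Cd34, Aplnr, Calcrl and Esm1.

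Among the 7 adhesion and surface mucin genes, 6 rose, against 7.91% called higher over all genes tested. Pecam1, an adhesion molecule of endothelial junctions that platelets and leukocytes also carry, stood at 7.07, 5.83 and 7.36 FPKM in KO1, KO2 and KO3, against 2.45, 2.56, 2.33 and 1.88 FPKM in WT1 to WT4. Its groups were far apart relative to their spread, and its adjusted p was the lowest of the 24 tested (log2 difference 1.23, SE 0.12, limma adjusted p = 0.00234). Cdh5, the VE-cadherin of adherens junctions, had 5.67, 4.84 and 5.88 FPKM in the KO-labelled libraries and 1.28, 3.34, 2.11 and 1.39 FPKM in the WT libraries. WT2 came nearest to the KO-labelled range, and the difference of 1.14 (SE 0.21) was called (limma adjusted p = 0.00936). Esam, a tight junction adhesion molecule selective for endothelium and platelets, averaged 5.96 ± 1.12 FPKM in KO-labelled and 1.79 ± 0.730 FPKM in WT libraries (limma adjusted p = 0.00572).

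The widest ratios lay in the same adhesion group. Cldn5, Emcn and Icam2 had WT means under 1 FPKM and passed the minimum through their KO-labelled values. Cldn5, the main claudin of endothelial tight junctions, had 6.20, 2.11 and 3.48 FPKM in KO1, KO2 and KO3, against 0.316, 0.704, 0.812 and 0.238 FPKM in WT1 to WT4. KO1 was the highest and KO2 the lowest KO-labelled library, and all 3 lay above the WT range (log2 difference 1.63, SE 0.27, limma adjusted p = 0.00698). Emcn, the sialomucin endomucin of capillary and venous endothelium, had 6.02, 3.80 and 7.73 FPKM in the KO-labelled and 0.542, 1.21, 1.13 and 0.269 FPKM in the WT libraries. Its difference of 1.93 (SE 0.25) was called (limma adjusted p = 0.00397). Icam2, a ligand of leukocyte integrins that resting endothelium carries, had 3.87, 2.75 and 3.70 FPKM in the KO-labelled and 0.559, 0.792, 0.465 and 0.162 FPKM in the WT libraries, with a difference of 1.58 (SE 0.18, limma adjusted p = 0.00302).

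Cd34, a sialomucin of endothelium, blood progenitors and some stromal cells, did not follow the other adhesion genes. It had the highest level of the 34 in both groups, at 17.5, 14.8 and 16.6 FPKM in KO1, KO2 and KO3, against 8.86, 18.2, 13.8 and 13.2 FPKM in WT1 to WT4. The KO-labelled values lay inside the WT range, with WT2 the highest of all 7 and WT1 the lowest. The difference of 0.29 (95% interval -0.15 to 0.73) was not called (limma adjusted p = 0.289).

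The promoters of 4 members are shown to set genes with a large rise beside Cd34, which was not called. RefSeq (build GRCm38.p6) gave 19 promoters for 15 of the 34 genes. The windows span the 250 bases before the annotated start, and capitals mark CAGGAA or its reverse complement TTCCTG, letters that hold the GGAA core bound by ETS factors.
Emcn (chr3:137340828-137341077, plus strand): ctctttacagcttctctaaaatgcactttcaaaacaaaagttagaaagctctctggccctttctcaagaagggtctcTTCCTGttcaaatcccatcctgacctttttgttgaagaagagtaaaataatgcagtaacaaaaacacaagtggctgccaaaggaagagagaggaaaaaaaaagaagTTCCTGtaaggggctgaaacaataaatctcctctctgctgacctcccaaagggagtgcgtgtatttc
Cldn5 (chr16:18776597-18776846, plus strand): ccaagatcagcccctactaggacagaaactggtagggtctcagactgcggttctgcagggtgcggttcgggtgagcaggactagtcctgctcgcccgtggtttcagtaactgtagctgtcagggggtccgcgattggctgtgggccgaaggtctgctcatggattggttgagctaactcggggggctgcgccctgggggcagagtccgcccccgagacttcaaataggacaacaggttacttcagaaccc
Eng (chr2:32646345-32646594, plus strand): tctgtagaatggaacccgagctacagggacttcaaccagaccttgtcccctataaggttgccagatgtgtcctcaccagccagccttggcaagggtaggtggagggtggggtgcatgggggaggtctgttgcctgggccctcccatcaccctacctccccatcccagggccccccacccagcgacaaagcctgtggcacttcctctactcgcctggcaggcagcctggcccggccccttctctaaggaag
Cd34 (chr1:194938571-194938820, plus strand): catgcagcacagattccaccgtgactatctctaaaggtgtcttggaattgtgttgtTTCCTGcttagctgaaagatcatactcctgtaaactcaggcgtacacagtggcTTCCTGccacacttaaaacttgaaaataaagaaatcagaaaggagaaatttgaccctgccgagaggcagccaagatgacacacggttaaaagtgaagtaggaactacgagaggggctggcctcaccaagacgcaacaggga

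CAGGAA occurred on either strand in 11 of the 19 endothelial promoters and in 25.7% of all 32851 RefSeq promoters of this length. CCGGAA, another form of the ETS core, occurred in 1 of the 19, that of Kdr, and in 12% of all. AACAGGAA, which contains CAGGAA and combines it with a forkhead-type half-site, occurred in 3 of the 19 and in 2.2% of all. AACAAT, a SOX-type motif, occurred in 4 of the 19 and in 9.4% of all. The shown windows do not divide by response. Cldn5 and Eng rose and hold no CAGGAA in this window, while Emcn rose and Cd34 was not called, and each of these windows holds 2. The core GGAA, or its reverse complement TTCC, outside CAGGAA was not marked, and the Eng window holds it. A match of letters is not a bound site.

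Of the 6 genes for receptor tyrosine kinases and their phosphatase, 3 were tested and 2 of them rose. Over all genes tested, 7.91% were called higher. Tie1 and Flt4 had WT means under 1 FPKM and passed the minimum through their KO-labelled values. Kdr, the main signalling receptor of VEGF-A, had 2.76, 3.41 and 3.46 FPKM in KO1, KO2 and KO3, against 0.823, 1.84, 1.22 and 1.08 FPKM in WT1 to WT4. No value overlapped (log2 difference 0.93, SE 0.17, limma adjusted p = 0.00823). Tie1, the partner of the angiopoietin receptor, had 3.07, 2.01 and 3.68 FPKM in the KO-labelled and 0.789, 1.35, 0.941 and 0.634 FPKM in the WT libraries, and it rose by 1.01 (SE 0.19, limma adjusted p = 0.00907). Flt4, the receptor of VEGF-C and VEGF-D known from lymphatic vessels, had 1.60, 1.35 and 1.95 FPKM in the KO-labelled and 1.05, 1.28, 0.928 and 0.733 FPKM in the WT libraries. The lowest KO-labelled value lay just above the highest WT value, and the difference of 0.40 (95% interval 0.06 to 0.74) was not called (limma adjusted p = 0.0789). It was called with median-of-ratios scaling (adjusted p = 0.0465), upper-quartile scaling (0.0419) and the length correction (0.0178).

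The other 3 genes of this group had a mean under 1 FPKM over all libraries and were not tested there. Flt1, a VEGF receptor that also exists as a soluble decoy, had 1.58, 1.48 and 1.90 FPKM in KO1, KO2 and KO3, against 0.464, 0.596, 0.546 and 0.183 FPKM in WT1 to WT4. Tek, the angiopoietin receptor, had 1.68, 1.26 and 1.51 FPKM in the KO-labelled and 0.472, 0.818, 0.718 and 0.497 FPKM in the WT libraries. Ptprb, the endothelial phosphatase that acts on Tek and VE-cadherin, averaged 0.866 ± 0.207 FPKM in KO-labelled and 0.343 ± 0.0898 FPKM in WT libraries. The groups of these 3 genes did not overlap, and their ratios of means were 3.70, 2.37 and 2.52. Flt1 and Tek reached the minimum in some alternatives and were called by limma in each of these. Their WT means were 0.447 and 0.626 FPKM, so both reached it through their KO-labelled values. Flt1 was called without each WT library in turn (adjusted p 0.0136 to 0.0251), and Tek without each WT library (0.0271 to 0.0466), with median-of-ratios scaling (0.0145) and with upper-quartile scaling (0.0135).

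Of the 6 other membrane proteins, the 4 that were tested all rose, against 7.91% called higher over all genes tested. Ecscr, Plvap and Lyve1 had WT means under 1 FPKM and passed the minimum through their KO-labelled values. Eng, or endoglin, a co-receptor for TGF-beta family ligands, had 10.8, 7.90 and 11.8 FPKM in KO1, KO2 and KO3, against 1.29, 3.42, 1.92 and 1.36 FPKM in WT1 to WT4. The lowest KO-labelled value was above 2 times the highest WT value, and the difference was 1.93 (SE 0.23, limma adjusted p = 0.00330). Ecscr, a surface protein of endothelial migration, had 6.82, 3.55 and 5.39 FPKM in the KO-labelled and 0.686, 1.08, 1.11 and 0.496 FPKM in the WT libraries (log2 difference 1.74, SE 0.21, limma adjusted p = 0.00323). Plvap, which forms the diaphragms of endothelial fenestrae, averaged 2.49 ± 0.583 FPKM in KO-labelled and 0.641 ± 0.221 FPKM in WT libraries (limma adjusted p = 0.00606). Lyve1, a hyaluronan receptor of lymphatic endothelium and of some macrophages, had 4.54, 2.31 and 3.59 FPKM in the KO-labelled and 0.734, 1.42, 0.71 and 0.498 FPKM in the WT libraries (log2 difference 1.27, SE 0.22, limma adjusted p = 0.00716). WT2 was the highest WT library for Eng and Lyve1, and KO2 the lowest KO-labelled library for these 4 genes.

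Nos3 and Robo4 had means under 1 FPKM and were not tested. Nos3, the endothelial nitric oxide synthase, had 1.49, 1.04 and 1.93 FPKM in KO1, KO2 and KO3, against 0.249, 0.385, 0.211 and 0.153 FPKM in WT1 to WT4. Its exons share 25.2% of their bases with the antisense gene Gm15587, which stood at 0.00524 FPKM in KO-labelled and 0.00369 FPKM in WT libraries. Robo4, an endothelial Roundabout receptor, averaged 0.976 ± 0.229 FPKM in KO-labelled and 0.212 ± 0.0843 FPKM in WT libraries. Neither gene's groups overlapped.

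The genes of ligand and receptor pairs that signal through G proteins split. Ramp2, the accessory subunit that turns the receptor Calcrl into an adrenomedullin receptor, had 11.5, 6.04 and 9.84 FPKM in KO1, KO2 and KO3, against 2.67, 3.79, 2.01 and 1.12 FPKM in WT1 to WT4. It rose by 1.60 (SE 0.28, limma adjusted p = 0.00786). Annotated Ramp2 exons share 33.4% of their bases with the same-strand gene Vps25, so part of its fragments could be assigned to either. Vps25 itself was at 15.4 FPKM in KO-labelled and 14.7 FPKM in WT libraries and was not called (limma adjusted p = 0.781).

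Calcrl, the partner of Ramp2, had 1.72, 0.931 and 1.08 FPKM in KO1, KO2 and KO3, against 0.727, 1.10, 0.862 and 0.718 FPKM in WT1 to WT4. The groups overlapped, since WT2 lay above KO2 and KO3, and the difference of 0.27 (95% interval -0.10 to 0.64) was not called (limma adjusted p = 0.251). The apelin ligand Apln, made by sprouting tip cells, had 1.64, 1.97 and 1.68 FPKM in the KO-labelled and 0.488, 0.964, 0.515 and 0.200 FPKM in the WT libraries, a rise of 0.86 (SE 0.18, limma adjusted p = 0.0122). Its receptor Aplnr had 2.05, 1.61 and 2.16 FPKM in the KO-labelled and 0.465, 1.72, 1.05 and 0.659 FPKM in the WT libraries. WT2 exceeded KO2, and Aplnr was not called (log2 difference 0.61, SE 0.21, limma adjusted p = 0.0655), but it was without WT2 (adjusted p = 0.0251), with upper-quartile scaling (0.0467) and with the length correction (0.0328). S1pr1, the sphingosine-1-phosphate receptor that stabilises vessels, had 5.21, 5.42 and 4.69 FPKM in the KO-labelled and 2.67, 1.65, 2.55 and 2.83 FPKM in the WT libraries, with a rise of 0.85 (SE 0.14, limma adjusted p = 0.00725). The order of libraries for S1pr1 differed from that of most members, with WT2 lowest and KO2 highest.

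The 3 tested transcription factors rose, against 7.91% called higher over all genes tested. Erg had a WT mean under 1 FPKM and passed the minimum through its KO-labelled values. Sox18, a SoxF factor of vascular and lymphatic development, had 12.2, 9.99 and 12.1 FPKM in KO1, KO2 and KO3, against 7.14, 5.06, 5.25 and 5.12 FPKM in WT1 to WT4. It had a WT mean second to Cd34 and its groups did not overlap (ratio of means 2.03, log2 difference 0.91, SE 0.13, limma adjusted p = 0.00498). Ets1, an ETS factor of endothelium and lymphocytes, had 4.68, 4.07 and 5.12 FPKM in the KO-labelled and 1.46, 1.94, 1.63 and 1.59 FPKM in the WT libraries (log2 difference 1.08, SE 0.12, limma adjusted p = 0.00302). Erg, the ETS factor that maintains endothelial identity, had 2.18, 2.08 and 3.57 FPKM in the KO-labelled and 0.977, 0.895, 0.826 and 0.727 FPKM in the WT libraries (log2 difference 0.94, SE 0.16, limma adjusted p = 0.00755). The WT libraries of Ets1 and Erg lay close together.

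The other 3 factors had means under 1 FPKM. Fli1, an ETS factor of endothelium and blood cells, had 1.5, 0.789 and 1.29 FPKM in KO1, KO2 and KO3, against 0.301, 0.278, 0.284 and 0.252 FPKM in WT1 to WT4. The SoxF factor Sox17, known from arteries, had 0.794, 1.14 and 2.20 FPKM in the KO-labelled and 0.240, 0.417, 0.304 and 0.025 FPKM in the WT libraries. Its exons share 16.8% of their bases with Gm37587 on the opposite strand. Sox7, the remaining SoxF factor, averaged 0.835 ± 0.377 FPKM in KO-labelled and 0.176 ± 0.0577 FPKM in WT libraries. The 3 genes had ratios of means of 4.29, 5.59 and 4.74, and none of their groups overlapped.

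Of the 4 secreted and matrix proteins 2 were tested and only Egfl7 rose, against 7.91% called higher over all genes tested. Egfl7, a matrix-bound factor of sprouting vessels, had 15, 9.10 and 12.3 FPKM in KO1, KO2 and KO3, against 4.04, 6.57, 4.30 and 2.90 FPKM in WT1 to WT4 (log2 difference 1.28, SE 0.23, limma adjusted p = 0.00786). Esm1, the proteoglycan endocan of tip cells, had 2.91, 3.52 and 1.52 FPKM in the KO-labelled and 2.55, 0.383, 0.775 and 1.27 FPKM in the WT libraries. WT1 lay above KO3, and the difference of 0.75 (95% interval 0.03 to 1.47) was not called (limma adjusted p = 0.113), although it was without WT1 (adjusted p = 0.0306). Mmrn2, a matrix glycoprotein of endothelium, had 0.851, 1.0 and 1.18 FPKM in the KO-labelled and 0.0807, 0.502, 0.212 and 0.217 FPKM in the WT libraries. Vwf, the clotting factor carrier stored in endothelium and platelets, had the lowest level of the 34, at 0.269, 0.249 and 0.353 FPKM in the KO-labelled and 0.151, 0.214, 0.0832 and 0.108 FPKM in the WT libraries. Mmrn2 and Vwf fell under the minimum, and their groups did not overlap.

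With no minimum, the fit took in all 32922 genes above 0 in some library, and so all 10 genes under the minimum. There 25 of the 34 were called higher by limma, against 2.24% of all genes, and 6 of the 10 were among them (Flt1, Tek, Robo4, Nos3, Fli1 and Mmrn2), while Ptprb, Sox7, Sox17 and Vwf were not. These calls lay close to the threshold and depended on single libraries. The count of 25 was 21 without KO2, 9 without WT1 and 0 without each of KO1, KO3, WT2, WT3 and WT4, where 29 to 32 of the 34 still had an unadjusted p under 0.05. Without those libraries the count over all genes likewise was at most 9, beside 736 with every library.

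**Figure D2:**
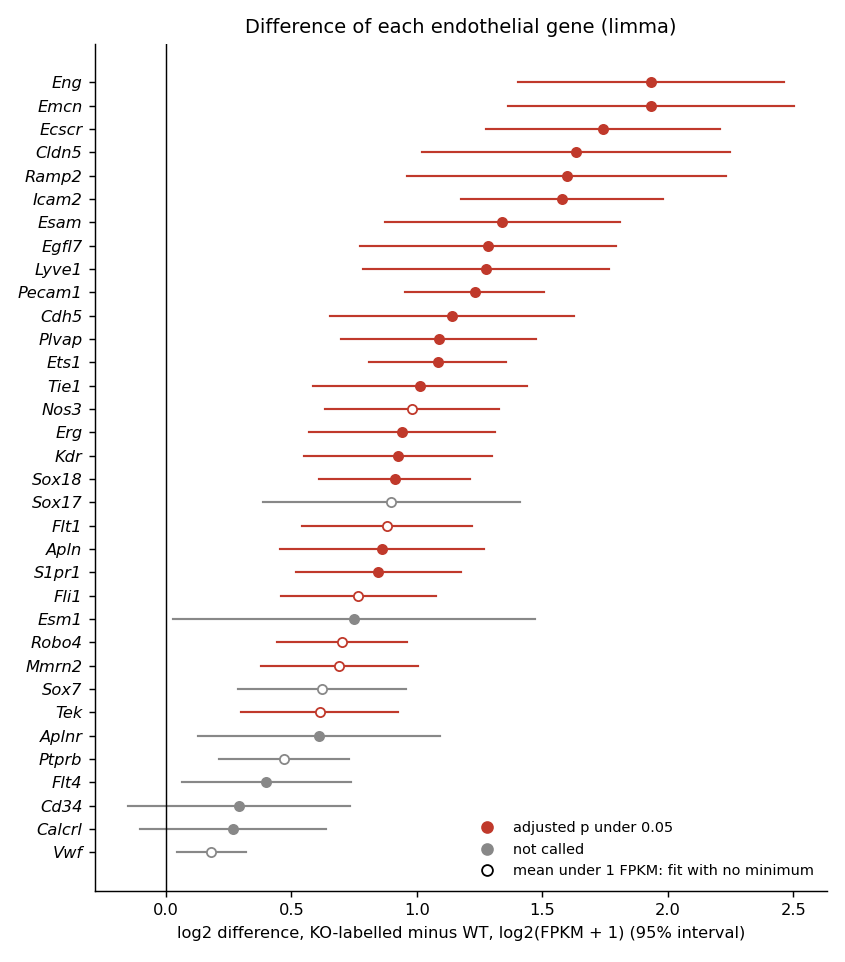
Log2 difference of each endothelial identity gene, KO-labelled minus WT, with its 95% interval from limma (red, called; grey, not called; open symbols, the 10 genes under the minimum, taken from the fit with no minimum). Differences run from 0.18 for Vwf to 1.93 for Eng and Emcn, and the intervals of Cd34 and Calcrl include 0.

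The members differed in how far they moved relative to each other. Taken against Pecam1 of the same library, Cdh5 stood at 0.801, 0.831 and 0.800 of the Pecam1 level in KO1, KO2 and KO3, and between 0.525 and 1.30 of it in WT libraries. The KO-labelled ratio fell inside the WT range. Icam2 stood at 0.471 to 0.547 of the Pecam1 level in KO-labelled and 0.0863 to 0.310 in WT libraries, and Emcn at 0.651 to 1.05 in KO-labelled and 0.143 to 0.484 in WT libraries. These ratios were higher in every KO-labelled library. Cd34 stood at 2.26 to 2.54 times the Pecam1 level in KO-labelled and 3.62 to 7.12 times in WT libraries, and Sox18 at 1.64 to 1.73 times in KO-labelled and 1.98 to 2.91 times in WT libraries. Flt4 and Calcrl also had lower ratios in every KO-labelled library. These genes were picked after their values were seen, and the ratios were not tested. Across the 34 genes, which share the same libraries, the Spearman correlation of the ratio of means with transcript length was -0.337. With the WT mean, which is also the lower term of the ratio, it was -0.485.

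**Figure D3:**
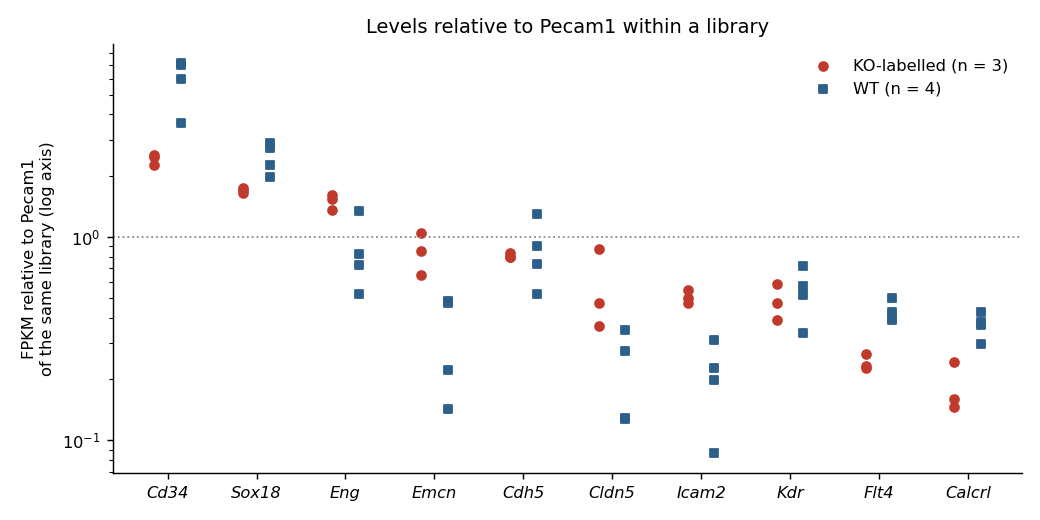
FPKM of 10 endothelial genes relative to Pecam1 of the same library, on a log axis (circles, 3 KO-labelled libraries; squares, 4 WT libraries; dotted line, the Pecam1 level). The KO-labelled points of Cdh5 lie between 0.800 and 0.831, while those of Cd34 lie at 2.26 to 2.54 and below all WT points.

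Within each group some libraries were high or low for many members at once. WT2 was the highest WT library for 26 of the 34 genes and WT4 the lowest for 19. KO2 was the lowest KO-labelled library for 28, and KO3 was the highest for 18 and KO1 for 13. The median member stood at 3.26, 2.64 and 3.86 times its WT mean in KO1, KO2 and KO3, and at 0.891, 1.44, 0.973 and 0.709 times in WT1 to WT4. So the members were most raised in KO3 and least in KO2, and WT2 was the WT library nearest to them. S1pr1, Sox18 and Esm1 were lowest in WT2, and among the other members Plvap, Erg and Fli1 were highest in WT1 and Cldn5 and Ecscr in WT3.

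Endothelial genes outside the 34 were counted in the same fit, where 7.91% of all genes tested were called higher and 16.7% lower. These lists too were chosen with earlier results of these data known. Of 33 other endothelium-enriched genes 21 were tested, of which 15 rose and 0 fell. Of the 15, 5 (Cd93, Gimap4, Gimap6, Lmo2 and Rasip1) had a WT mean under 1 FPKM and so passed the minimum through their KO-labelled values, and 10 of the 16 tested with a WT mean of at least 1 FPKM rose. The GTPase Gimap4 stood at 4.83 ± 0.246 FPKM in KO-labelled and 0.937 ± 0.376 FPKM in WT libraries, the G protein subunit Gng11 at 6.43 ± 2.14 FPKM in KO-labelled and 1.40 ± 0.252 FPKM in WT libraries. Gimap6 stood at 4.11 ± 1.42 FPKM in KO-labelled and 0.545 ± 0.233 FPKM in WT libraries. The count of 15 was 8 without KO1, and 1 gene was called lower without KO2 and with libraries scaled to one total. Lymphocytes also express both GTPases. The tested genes that were not called were looked up after their values were seen. Adgrf5, the most abundant of the list, stood at 45.0 ± 20.2 FPKM in KO-labelled and 49.2 ± 10.9 FPKM in WT libraries. She stood at 3.22 ± 0.586 FPKM in KO-labelled and 4.2 ± 0.23 FPKM in WT libraries. The others were Klf2, Klf4, Hhex and Thbd. Of the 6 lymphatic genes 4 were tested. The chemokine Ccl21a averaged 42.8 ± 24.8 FPKM in KO-labelled and 6.03 ± 1.72 FPKM in WT libraries and rose (limma adjusted p = 0.00464), though its fragments can be shared with near-identical copies. Podoplanin (Pdpn) rose to 23.0 ± 4.04 FPKM in KO-labelled libraries, against 15.1 ± 1.56 FPKM in WT libraries. The matrix protein Reln fell to 3.74 ± 0.759 FPKM in KO-labelled libraries, against 7.5 ± 0.782 FPKM in WT libraries. The lymphatic rises numbered 3, of which Mmrn1 had a WT mean under 1 FPKM, and 1 without each of KO1, KO3 and WT3 and with no minimum.

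Ligands, Notch genes and activation markers did not move as one. Of 12 genes for VEGF and angiopoietin ligands and co-receptors 10 were tested, of which 4 rose and 1 fell. Over all genes tested, 7.91% were called higher and 16.7% lower. The vasodilator peptide Adm averaged 2.60 ± 0.511 FPKM in KO-labelled and 0.960 ± 0.169 FPKM in WT libraries, and the VEGF co-receptor Nrp1 4.45 ± 0.807 FPKM in KO-labelled and 2.07 ± 0.464 FPKM in WT libraries. Adm passed the minimum through its KO-labelled values, and 3 of the 8 genes tested with a WT mean of at least 1 FPKM rose. The angiopoietin Angpt4 fell to 0.834 ± 0.347 FPKM in KO-labelled libraries, against 1.81 ± 0.213 FPKM in WT libraries. Vegfa, looked up after its values were seen, was at 55.1 ± 13.5 FPKM in KO-labelled and 53.1 ± 6.51 FPKM in WT libraries (limma adjusted p = 0.894). The 4 rises numbered 2 without each of KO1, KO3 and WT3, with no minimum and with the replicate block. The fall was lost without each of KO1, KO3, WT2 and WT3 and with no minimum. Of 15 Notch and arteriovenous genes 11 were tested and 2 fell, which is near the 16.7% called lower over all genes tested. The Notch target Hey2 fell to 4.99 ± 0.779 FPKM in KO-labelled libraries, against 9.81 ± 2.14 FPKM in WT libraries. Heyl, also a Notch target, fell to 20.3 ± 3.02 FPKM in KO-labelled libraries, against 29.1 ± 3.94 FPKM in WT libraries. No Notch or arteriovenous gene was called higher by limma in the fit with the minimum, but 2 were with no minimum, 1 with the length correction, 1 with the replicate block, 1 without WT1 and 2 without WT4. The 2 falls were 1 without each of KO1, KO2 and WT3. They were also 1 with median-of-ratios scaling, upper-quartile scaling, the length correction and no minimum, and 3 with libraries scaled to one total. Of 6 activation genes 3 were tested. The adhesion molecule Icam1 rose to 4.54 ± 1.83 FPKM in KO-labelled libraries, against 1.13 ± 0.441 FPKM in WT libraries, while Vcam1, also made by other ovarian cells, fell to 6.38 ± 2.63 FPKM in KO-labelled libraries, against 12.3 ± 1.29 FPKM in WT libraries. The fall of Vcam1 was not called without KO1, without KO3 or with no minimum.

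Markers of other cell types moved in the same libraries, and their part in the endothelial differences was not tested. The shares over all genes tested were 7.91% called higher and 16.7% called lower, and these lists were chosen with earlier results of these data known. Macrophage markers summed to 144, 71.8 and 155 FPKM in KO1, KO2 and KO3, and to 46.8, 31.8, 29.6 and 25.9 FPKM in WT1 to WT4, with 10 of 11 tested genes higher, or 8 of the 9 with a WT mean of at least 1 FPKM. Pericyte and smooth muscle markers, of cells that wrap vessels, summed to 371, 139 and 219 FPKM in the KO-labelled libraries and to 90.7, 112, 88.2 and 62.7 FPKM in the WT libraries, with 6 of 9 higher, or 5 of the 7 with a WT mean of at least 1 FPKM. Both sums were lowest in KO2 among KO-labelled libraries, as was the endothelial sum. The same held for every other cell type list except granulosa, whose sum was highest in KO2. Over all genes tested, KO2 was the KO-labelled library nearest to each WT library. Its Spearman correlations with WT libraries were 0.9309 to 0.9571, against 0.9025 to 0.9473 for KO1 and KO3. Among WT libraries the pericyte sum was highest in WT2, as was the endothelial sum, while the macrophage sum was highest in WT1. Epithelial markers summed to 62.2 to 127 FPKM in KO-labelled and 30 to 39.3 FPKM in WT libraries, with 8 of 8 higher, or 7 of the 7 with a WT mean of at least 1 FPKM. Erythroid markers, mostly globins with near-identical copies, summed to 4770, 3020 and 3620 FPKM in KO1, KO2 and KO3, and to 2670, 1050, 1440 and 1350 FPKM in WT1 to WT4, with 5 of 5 higher, or 3 without each of KO1, KO3 and WT3. With no minimum 2 erythroid markers were higher. Stroma and theca markers summed to 143 to 261 FPKM in KO-labelled and 61.4 to 165 FPKM in WT libraries, with 3 of 8 higher (1 without KO1 and 1 with no minimum) and 1 lower. The stroma and theca ranges overlapped. WT2 was the highest WT library for the stroma and theca and the epithelial sums but the lowest for the erythroid sum.

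Markers of platelets and lymphocytes, which share some endothelial genes, form shorter lists than the macrophage markers and had lower sums in every library. Platelet markers summed to 10.2 to 14.3 FPKM in KO-labelled and 7.85 to 11 FPKM in WT libraries. Of 3 tested, 1 was called higher, against 7.91% of all genes tested. Itgb3, the most abundant of the list, stood at 5.79 ± 0.742 FPKM in KO-labelled and 6.1 ± 1.48 FPKM in WT libraries. It was not called (limma adjusted p = 0.841), and neither was Itga2b (limma adjusted p = 0.62). The marker called higher was Pf4, at 3.90 ± 2.69 FPKM in KO-labelled and 0.669 ± 0.458 FPKM in WT libraries. Pf4 had a WT mean under 1 FPKM and passed the minimum through its KO-labelled values. It was not called without KO1, without WT3 or with no minimum, and Ppbp and Gp9 were at 0 in some libraries. The 8 lymphocyte markers summed to 1.39 to 2.39 FPKM in KO-labelled and 0.647 to 1.88 FPKM in WT libraries, none was tested, and 6 of them were at 0 in some library. Granulosa markers summed to 3210 to 4730 FPKM in KO-labelled and 4950 to 7040 FPKM in WT libraries. Lower calls numbered 6 of 12, against 16.7% of all genes tested. Among the 6 was the gap junction gene Gja1, at 571 ± 132 FPKM in KO-labelled and 1000 ± 169 FPKM in WT libraries. The 6 were 3 without WT3 and 2 with no minimum, and 0 granulosa markers were higher.

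**Figure D4:**
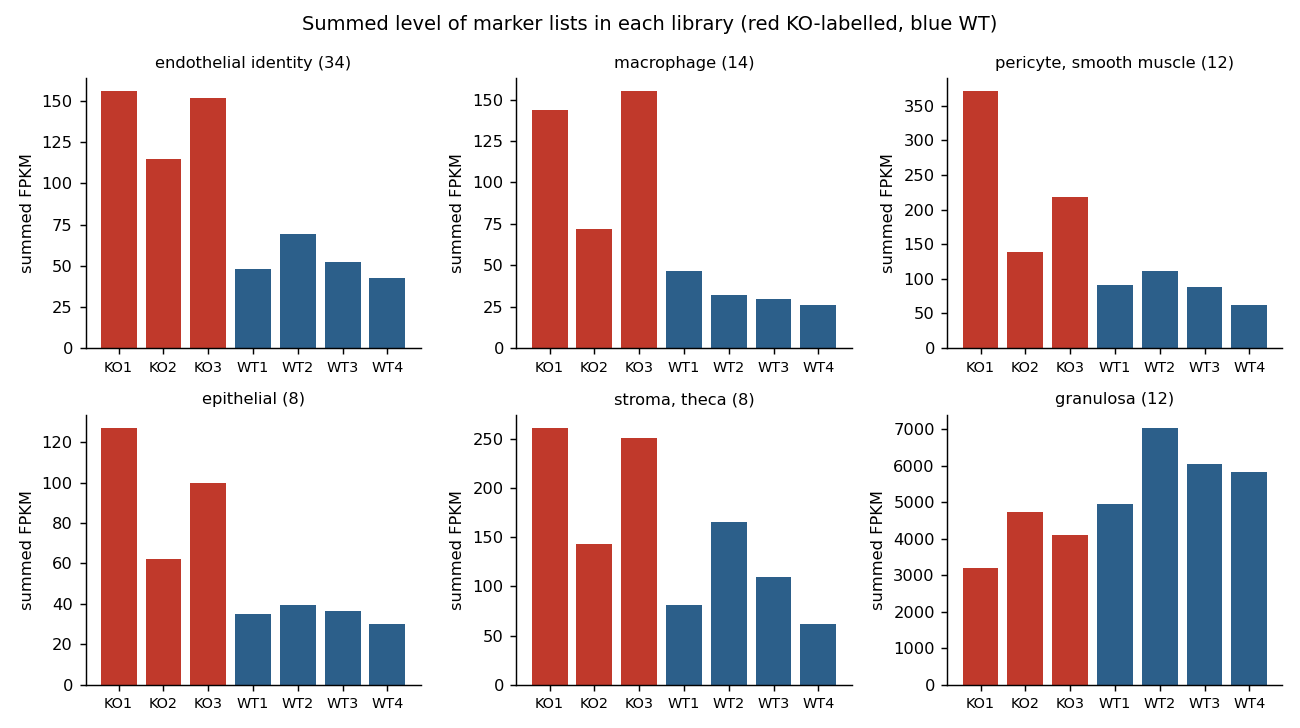
Summed FPKM of 6 marker lists in each library (red bars, KO1 to KO3; blue bars, WT1 to WT4; each axis starts at 0). The 34 endothelial genes sum to 115 to 156 FPKM in KO-labelled and 42.6 to 69.1 FPKM in WT libraries, the macrophage, pericyte and epithelial bars of KO-labelled libraries exceed all WT bars, KO2 lies below WT2 for stroma and theca, and all granulosa bars of KO-labelled libraries lie below the WT bars.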

How the data were processed

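Poly(A) RNA was sequenced from NEBNext Ultra libraries, per the labels' protocols. The authors deposited 1 table of values taken here to be FPKM, an inference from the values (not whole, with sums that differ between libraries), and the step that made them is not given in the sources used here. The submitters' processing notes name the build mm10 and, without saying what each did, HTSeq 0.12.4, HISAT2, edgeR, DESeq2, Trimmomatic and FastQC. Low values lay within 2% of whole multiples of a best-fitting fragment size for at most 22.8%, so counts and depth are unknown, no count test was run and no counting interval is given. Whether counting used strand is not given in the sources used here.

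KO-labelled minus WT was fitted with limma 3.58.1 (R 4.3.3) with a mean-variance trend on log2(FPKM + 1), which understates changes near or below 1 FPKM. Transcript lengths, exons and coordinates came from GENCODE M21 (GRCm38, which is mm10). Single-gene values not in this fit carry no test. The code was tested on simulated data. Alternatives were pseudocount 0.1, no minimum, a minimum of 5 FPKM, 3 scalings, a length correction, a replicate block and each library left out. The 34 members and all lists were chosen with earlier results of these data known. The text names every member and, of each related list, up to 3 called genes of smallest p, with some others picked after their values were seen.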

Additional observations from a re-analysis of the deposited data

Results flagged for a closer look

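Sox18 stood at 7.14 FPKM in WT1, apart from the 5.06, 5.25 and 5.12 FPKM of WT2, WT3 and WT4. The gap to the next library was 0.911 of the range over the 4 WT libraries, above Dixon's 95% critical value for 4 samples. The 34 members were checked in this way in WT, and chance flags about 1 in 20 groups. Groups of 3 libraries were not checked.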

How the results depend on the processing

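The 19 endothelial genes called higher numbered 18 to 22 with each library left out, 19 to 25 under the other alternatives except a minimum mean of 5 FPKM, and 4 of 5 tested there. Under no alternative was a member called lower, and no member's difference changed sign. With no minimum on the level, the 25 members called (an alternative that was planned) numbered 21 without KO2, 9 without WT1 and 0 without each other library (chosen after seeing the data). The 736 genes of the whole table called higher there numbered 925 without KO2, 335 without WT1, 9 without KO1, 1 without WT4 and 0 without each of KO3, WT2 and WT3. All genes called higher, 1095, numbered 497 to 1316 with a library left out, being fewest without KO1 (497), KO3 (604) and WT3 (642), and 685 with a minimum of 5 FPKM. All genes called lower, 2315, numbered 796 to 2218 with a library left out, being fewest without KO1 (796), WT3 (910) and WT2 (1188). They numbered 1129 with no filter on low values, 1472 with upper-quartile scaling, 3946 when libraries were scaled to one total and 1357 with the length correction. Scaling to one total moved the median of all genes to -0.21, and that of the tested members was 0.98 there, against 1.5 with a pseudocount of 0.1. The share of higher calls thus depended on scaling, since 1542 were higher and 1617 lower with median-of-ratios scaling. The cause of these shifts was not tested. The labels do not pair libraries by number: deviations of same-numbered libraries correlated at 0.193, -0.11 and 0.071, and not every library matched its own number best. The fit with the replicate number as a block called 19 members and, over all genes, 921 higher and 1750 lower. Depth is unknown, so the precision of the genes under 1 FPKM cannot be given.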
